A study of Mus musculus with 4 samples.

Results

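Integrins and cadherins are the receptors by which kidney cells hold on to the matrix beneath them and to each other, and their messenger RNAs were followed here across the cell classes of the mouse kidney and between collecting duct *Tfap2a*-knockout mice and controls. The genes were chosen by symbol alone: every gene of the form Itga followed by its subunit number or letter, *Itgb1* to *Itgb8*, or Cdh followed by a number. This rule took 49 of the 31053 genes in the files, namely 18 integrin α genes, 8 integrin β genes and 23 cadherin genes. The libraries are single-nucleus RNA-seq libraries of 4 male mice aged 12 weeks, with 1 library per mouse. Both knockout mice carried a *Hoxb7*-driven Cre recombinase and 2 floxed *Tfap2a* alleles (Hoxb7Cre+;Tfap2afl/fl), and both control mice carried the same floxed alleles without Cre (Cre-,Tfap2aFlox/Flox), so the floxed alleles were shared by all 4 mice. Hoxb7Cre recombines in the ureteric bud lineage, that is in collecting ducts and lower urinary tract epithelium, and in this series it was used to ask which genes depend on TFAP2A, an AP-2 family transcription factor. The tissue was a middle slice of the kidney from which cortex had been trimmed, and controls were littermates of the knockouts.

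Integrins are heterodimers of an α and a β chain that span the membrane, bind laminins, collagens, fibronectin or other ligands outside the cell and link them through talin and kindlin to actin inside it. Integrins with the αv chain, when paired with β6 or β8, are best known for activating latent TGF-β. Classical cadherins bind cadherins of the neighbouring cell in the presence of calcium and are tied to actin by catenins. E-cadherin (*Cdh1*) is the main epithelial cadherin, and Ksp-cadherin (*Cdh16*) is named for its restriction to the kidney and a few other epithelia.

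The libraries held 22179410 to 44964099 UMIs (unique molecular identifiers, 1 per captured transcript), and 5430 to 7997 nuclei per mouse passed the filters, 27341 in all, with a median of 2628 UMIs. Clustering without the members gave 12 broad classes, with no marker of its own list at 0 in any of them, and 3 subclusters of the principal cells of the collecting duct (CD-PC). Podocytes, proximal tubule (PT), distal convoluted tubule (DCT), connecting tubule (CNT), thick ascending limb (TAL), intercalated cells (CD-IC), deep medullary epithelium of the pelvis (DMEP) and thin limb, endothelial, interstitial and immune cells made up the rest. Clusters of damaged (884 nuclei), mixed (408) or unnamed (111) nuclei and CD-PC subclusters set aside (218) were left out. Pairs of libraries shared 7 to 18 cell barcodes, at most 0.331% of the smaller library. Proximal tubule markers were not at 0 in any class, and in endothelial cells their summed level was 2130, 1800, 2729 and 2068 CPM (UMIs per 1000000 UMIs of that class in that mouse). Values listed for the mice always follow the order control 1, control 2, knockout 1 and knockout 2. The level of *Tfap2a* itself in CD-PC was 58.6, 99.3, 67.4 and 105 CPM, but the floxed alleles lose only internal exons, and a shortened transcript is counted like a whole one, so its level is no test of the deletion. Each level is set beside that of the free RNA of the same library, taken from barcodes with fewer than 100 UMIs, and a level at or below it is not read as expression. A lower summed level cannot tell fewer transcripts per nucleus from fewer transcribing nuclei.

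Of the 49 genes, 30 reached 10 CPM in every mouse of at least 1 class, 19 integrins and 11 cadherins. *Cdh15* (M-cadherin of muscle) and *Itgam* (αM of myeloid cells) had no UMI in the 12 classes, and 14 members were below a mean of 10 CPM in every class. Of the 588 pairs of member and class, 199 had a mean of at least 10 CPM, and 105 of these were above the free RNA in each of the 4 mice. The wide spread of some members in the free RNA matters most for *Cdh16*, *Itgb6* and *Itgb8*: each had a mean of at least 10 CPM in all 12 classes, but exceeded the free RNA in every mouse in 1, 3 and 1 classes. The members that stood above it in most classes were *Cdh4*, *Itga3* and *Itgb5*, in 8 classes each.

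**Figure D1:**
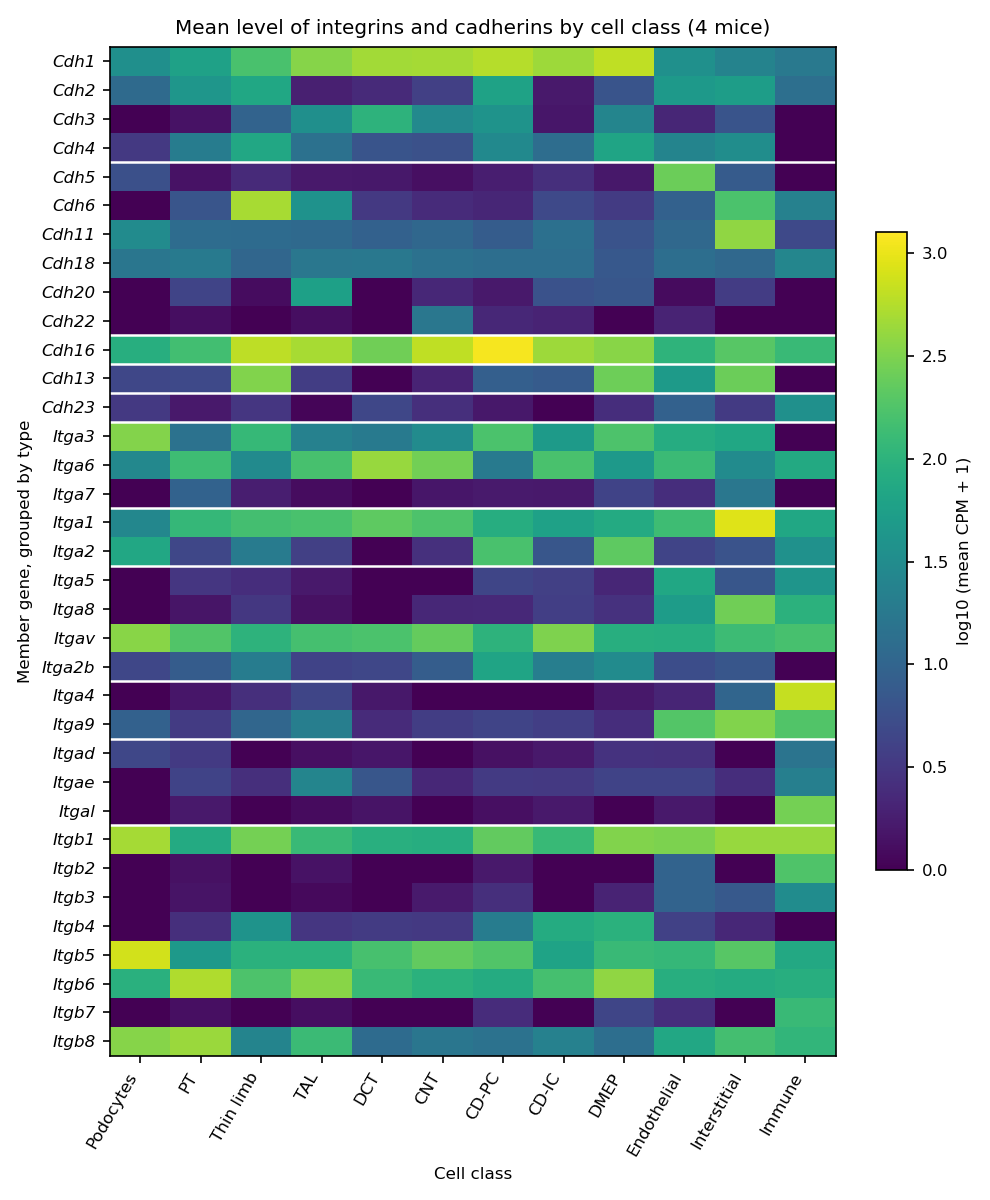
Mean level over the 4 mice of each member that reached a mean of 10 CPM in at least 1 class (rows, grouped by type) in the 12 cell classes (columns), as log10 of CPM + 1 in colour. *Cdh5* is bright only in endothelial cells, *Cdh20* only in TAL and *Itgal* only in immune cells, while *Cdh1* and *Cdh16* are bright in all segments of the distal tubule and collecting duct.

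Each class was compared with the mean of the other 11 by edgeR's quasi-likelihood test on UMIs summed per mouse, with the mouse as a covariate, and 44 members had enough UMIs to be tested. Because nuclei had first been clustered on other genes, these tests describe how the members follow the classes and are not independent of the grouping. Over all classes 127 of 528 pairs were higher (adjusted p under 0.05), against 17.1% of all pairs of gene and class, and 56 were lower, against 6.9%. With DESeq2 the split was 113 higher and 102 lower. In 135 of the 528 pairs edgeR gave no usable standard error (over 10 on the log2 scale, or none), so these could not have been called. Of the 127 higher pairs, 21 were below 10 CPM in the class itself, 7 of them in PT, the most deeply covered class.

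The share of members called differed between classes. Endothelial cells had 15 members higher (background of all genes 18.9%) and 4 lower (6.36%), and interstitial cells had 13 higher (11.2%) and 4 lower (3.88%). In PT 15 were higher (39.1%) and 5 lower (11.9%), and in TAL 15 were higher (28.6%) and 2 lower (7.3%). DMEP, the epithelium lining the papilla and pelvis, had 12 higher (14.7%) and 5 lower (7.34%). The thin limb had 11 higher (14.8%) and 4 lower (4.89%), and CD-PC 11 higher (24.1%) and 7 lower (9.91%). Immune cells had 9 higher (6.4%) and 6 lower (6.53%), CNT 8 higher (14.0%) and 4 lower (6.63%), and CD-IC 7 higher (13.8%) and 6 lower (5.18%). Podocytes had 6 higher (5.11%) and 4 lower (5.21%), and DCT 5 higher (15%) and 5 lower (7.69%). The share of members higher was below that of all genes in PT and DCT, close to it in CD-PC and CD-IC, and above it in the other classes.

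Among the type I cadherins, *Cdh1* was an epithelial gene of the distal segments. Its mean level was 635 ± 30.1 CPM in DMEP, 574 ± 82.8 in CD-PC, 480.3 ± 22.4 in CNT, 465 ± 30.2 in DCT, 445 ± 43.7 in CD-IC and 339 ± 10.5 in TAL (SD, n = 4), and mice of neighbouring classes in this order overlapped down to CD-IC. TAL came next, with every mouse below every CD-IC mouse. The thin limb followed at 125, 174, 141 and 198 CPM. In PT the level was 54.7, 68.8, 61.4 and 45.8 CPM, below the free RNA of 79.4, 106, 86.5 and 115 CPM in each library. *Cdh16*, the 7D cadherin of kidney epithelium, lies on chromosome 8 (chr8:104601915-104624396, GRCm38.p6) and was highest in CD-PC at 966, 1196, 1138 and 1233 CPM. All 4 mice there were above all mice of CNT (579, 689, 809 and 487) and thin limb (592, 545, 661 and 687), and CD-PC was the only class above the free RNA (508, 578, 448 and 635 CPM) in every mouse. Over the 12 class means, the member most like *Cdh16* was *Cdh1* (Pearson r = 0.82, all classes sharing the same 4 libraries), and *Cdh1* was in turn most like *Cdh16*.

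P-cadherin (*Cdh3*) and N-cadherin (*Cdh2*) were found in different segments, with CD-PC in common. *Cdh3*, a neighbour of *Cdh1* on chromosome 8, was highest in DCT at 84.9, 91.8, 92.6 and 135 CPM, 7.93 times the mean of the other classes (log2 difference 5.15 ± 0.28 SE, adjusted p = 1.86e-36 by edgeR). It was also above the free RNA in CD-PC (20.6, 42.3, 40.0 and 48.0), TAL (35.9, 35.6, 30.5 and 33.7), CNT and DMEP, but had a mean of 0.42 CPM in PT. In podocytes (112 nuclei) it had 0 UMIs, which allows up to 27.0, 57.1, 42.7 and 43.4 CPM. The mesenchymal and neural cadherin *Cdh2* was at 79.7, 67.1, 35.3 and 98.1 CPM in the thin limb, 29.7, 64.0, 67.4 and 78.5 in CD-PC and 50.2, 35.1, 36.2 and 44.8 in PT. The ranges of these 3 classes overlapped. Endothelial cells, where *Cdh2* was called higher too, were at 54.5, 64.5, 18.7 and 48.0 CPM, with knockout 1 below its free RNA of 20.6 CPM. In TAL, DCT, CNT and CD-IC the mean of *Cdh2* was below 3 CPM. R-cadherin (*Cdh4*) was highest in the thin limb at 67.0, 82.1, 61.0 and 78.0 CPM and in DMEP at 32.9, 39.6, 88.7 and 92.9, which overlapped.

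Several type II cadherins had their highest level in a single class. VE-cadherin (*Cdh5*), the cadherin of endothelial junctions, was at 217, 279.8, 228 and 286 CPM in endothelial cells, 155 times the mean elsewhere (log2 difference 7.92 ± 0.19 SE, adjusted p = 8.64e-76). *Cdh11*, the cadherin of mesenchymal cells, was at 422, 362, 309 and 436 CPM in interstitial cells, where it was 34.7 times the mean of the other classes. *Cdh6* (K-cadherin), known from the developing nephron, was at 464, 690.1, 324 and 484 CPM in the thin limb, 21.8 times the mean elsewhere (adjusted p = 4.61e-69). Interstitial cells came second for *Cdh6* at 152, 117, 92.6 and 295 CPM, below every thin limb mouse, then TAL at 41.7, 35.0, 42.5 and 27.8. *Cdh20* was a gene of TAL at 31.5, 44.9, 69.7 and 81.0 CPM, 33.0 times the mean elsewhere, with no other class reaching a mean of 10 CPM. *Cdh22* reached 10 CPM on average only in CNT (15.8 CPM), and *Cdh18* was called higher in PT at 1.31 times the mean elsewhere, its class means lying between 6.07 CPM in DMEP and 25.5 in immune cells. T-cadherin (*Cdh13*), which has a lipid anchor in place of a cytoplasmic tail, was at 275, 201, 459 and 348 CPM in the thin limb, 177, 298, 244 and 316 in DMEP and 185, 282, 298 and 236 in interstitial cells. These 3 classes overlapped, and endothelial cells followed at 57.3, 77.0, 18.7 and 38.4 CPM.

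**Figure D2:**
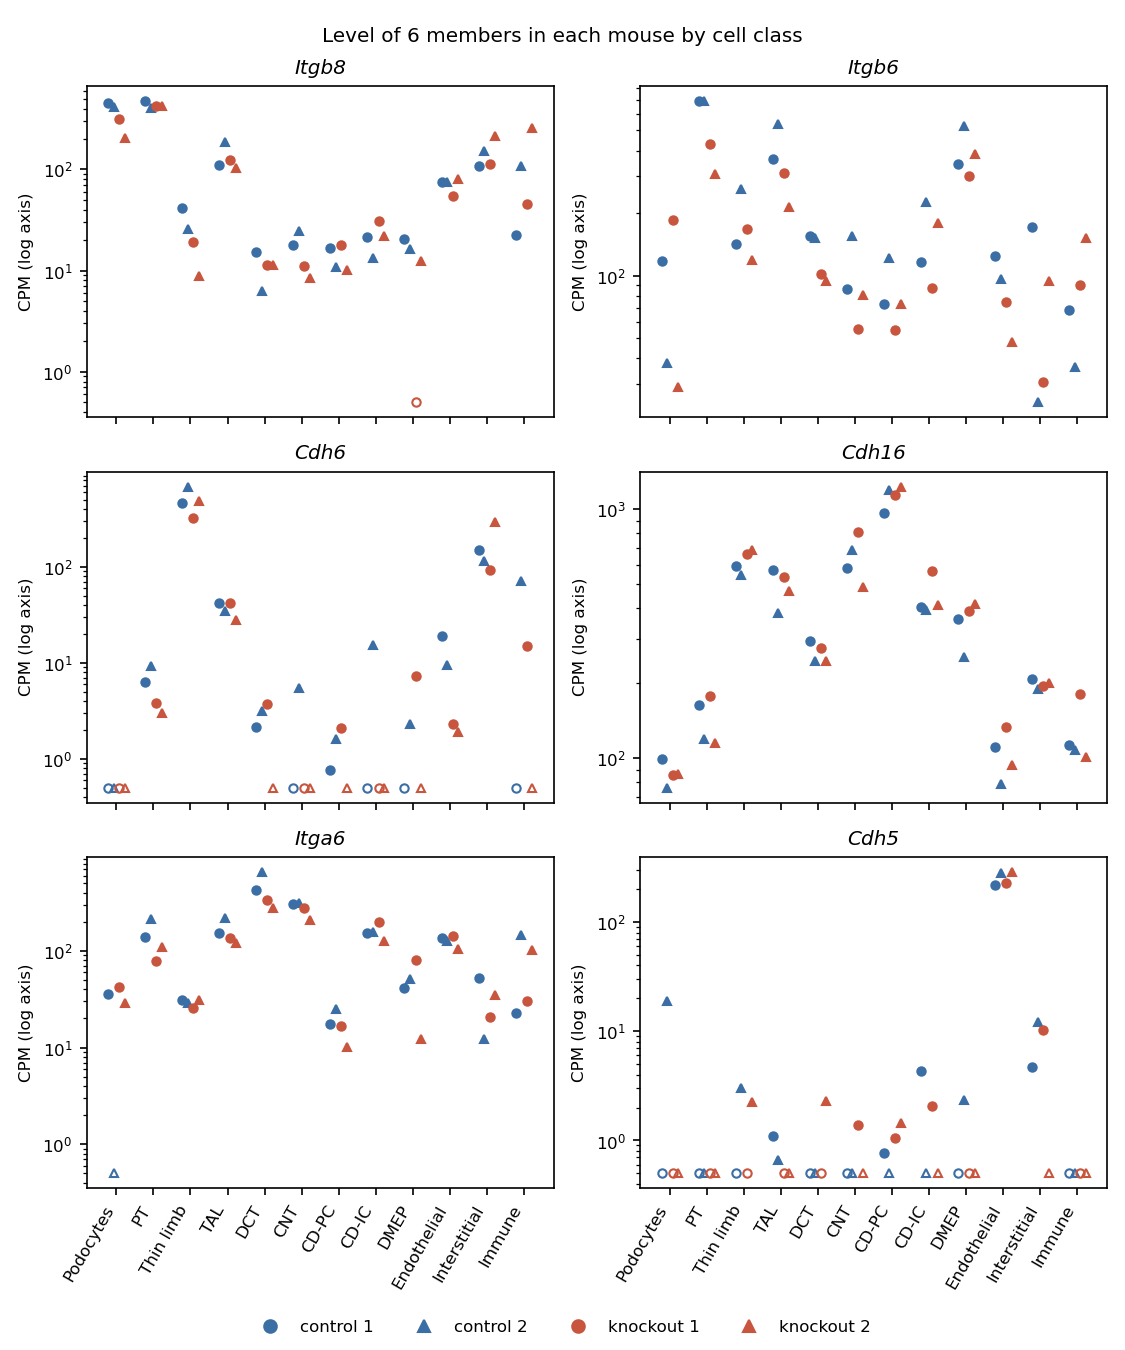
Level of *Itgb8*, *Itgb6*, *Cdh6*, *Cdh16*, *Itga6* and *Cdh5* in CPM on a log axis, by cell class, with a symbol per mouse (blue, controls; red, knockouts; circle, mouse 1; triangle, mouse 2; open symbols at 0.5 stand for values below 0.5). For *Cdh5* the 4 mice sit between 217 and 286 CPM in endothelial cells, for *Cdh6* between 324 and 690 in thin limb, and for *Cdh16* the 4 CD-PC values lie above those of all other classes.

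Among the αv integrins and their β partners, podocytes and PT stood apart. *Itgb5*, which forms the vitronectin receptor αvβ5, was at 711, 971, 684 and 752 CPM in podocytes, 6.28 times the mean elsewhere (adjusted p = 9.47e-35), with every podocyte library above every library of any other class. *Itgav* itself was highest in podocytes (297, 457, 399 and 246) and in CD-IC (372, 272, 322 and 312), which overlapped. *Itgb8* was at 474, 408, 419.6 and 425 CPM in PT, 5.26 times the mean elsewhere (log2 difference 3.84 ± 0.10 SE), and at 450.2, 419, 313 and 202 CPM in podocytes. PT was the only class in which it exceeded the free RNA (141, 166, 165 and 218 CPM) in every mouse. Below this, CD-PC, DCT, CNT, CD-IC and DMEP had means of 11.1 to 22.0 CPM, all under the free RNA. *Itgb6* (chr2:60598292-60722603, GRCm38.p6), an epithelial β chain that pairs only with αv, was at 692, 691, 429 and 309 CPM in PT, 345, 522, 303 and 384 in DMEP and 364, 538, 313 and 213 in TAL. Mice of these 3 classes overlapped, and all were above the free RNA at 194, 176, 208 and 148 CPM, whereas CD-PC at 73.1, 122, 54.7 and 72.7 CPM was below it in each mouse. *Itgb3*, which forms αvβ3 and the platelet receptor αIIbβ3, had a mean of 1.63 CPM or less in every epithelial class.

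The laminin-binding integrins were split along the nephron. *Itga3*, whose α3β1 receptor holds podocytes to the glomerular basement membrane, was at 315, 457, 256 and 318 CPM in podocytes, 5.0 times the mean elsewhere (adjusted p = 9.39e-24). Its next classes were DMEP (185, 172, 199.5 and 130.0) and CD-PC (138, 244, 114 and 176), both with every mouse below every podocyte library. *Itga6* was instead highest in DCT at 431, 652, 335 and 275 CPM, followed by CNT at 306, 315, 277 and 209. These overlapped, and CD-PC at 17.5, 25, 16.8 and 10.2 CPM was below the free RNA at 73.4, 86.0, 63.5 and 83.9 CPM. *Itgb4*, which with α6 forms the hemidesmosome receptor, followed another order, with 78.0, 83.9, 81.3 and 130.0 CPM in DMEP, 66.6, 95, 74.8 and 83.7 in CD-IC, 21.7, 27.0, 51.4 and 53.5 in the thin limb and 14.5, 17.9, 17.9 and 26.2 in CD-PC. In DCT, where *Itga6* was highest, the mean of *Itgb4* was 2.42 CPM. *Itgb1*, the common partner of most α chains, was present in all classes, from 76.7 ± 5.71 CPM in PT to 479.6 ± 89.3 in podocytes (SD, n = 4). Podocytes, immune cells (295, 542, 332 and 508) and interstitial cells (346, 534, 432 and 342) overlapped at the upper end.

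Of the collagen receptors, *Itga1* was highest in interstitial cells and *Itga2* in the epithelia of papilla and collecting duct. *Itga1*, the α chain of the collagen IV receptor α1β1, was at 872, 791, 812 and 1109 CPM in interstitial cells, 7.82 times the mean elsewhere (adjusted p = 1.03e-46), followed by DCT at 209, 297, 146 and 195. *Itga2*, the α chain of the collagen receptor α2β1, lies on chromosome 13 (chr13:114833081-114932100, GRCm38.p6) and was at 156, 217, 207 and 285 CPM in DMEP and 139, 168, 159 and 188 in CD-PC. Those ranges overlapped, all other classes but podocytes (72.0, 114, 28.5 and 72.3) and immune cells had means below 20 CPM, and in CD-PC it was 4.92 times the mean elsewhere (adjusted p = 1.46e-53). *Itga2b*, known as the αIIb chain of platelets, was highest in CD-PC at 66.2, 55.9, 78.9 and 55.3 CPM, and every mouse there was above every mouse of every other class. It was called higher in the thin limb and DMEP too, and in CD-IC at 19.3, 22.1, 10.4 and 29.5 CPM, 1.52 times the mean elsewhere, but the free RNA held 13.6, 21.3, 8.73 and 26.7 CPM. *Itga10* and *Itga11* stayed below a mean of 10 CPM in all classes.

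Outside the epithelium, the α chains of fibronectin, tenascin and nephronectin receptors were highest. *Itga5*, which forms the fibronectin receptor α5β1, was at 53.5, 101, 45.6 and 76.7 CPM in endothelial cells and 45.4, 36.1, 30.2 and 50.8 in immune cells, and at 5.7 CPM or less on average elsewhere. *Itga8*, whose α8β1 receptor binds nephronectin during kidney development, was at 284, 300.5, 339 and 142 CPM in interstitial cells, 18.5 times the mean elsewhere (adjusted p = 3.44e-46). *Itga9*, a receptor chain for tenascin and other ligands, was at 318, 343, 391 and 248 CPM in interstitial and 146, 197, 168 and 221 in endothelial cells. Immune cells had it too, above interstitial cells in control 1 but low in both knockouts, with values given below between genotypes. The free RNA held 156, 50.3, 356 and 52.0 CPM of *Itga9*, so only interstitial cells were above it in every mouse. Among leukocyte integrins, immune cells (106 nuclei, 12 of them in knockout 2) had 1067, 614, 437 and 558 CPM of *Itga4*, 159, 253, 347 and 355 of *Itgal* and 227, 108, 166 and 203 of *Itgb2*, from 104, 44 and 28 UMIs. *Itgb7*, the partner of *Itga4* in gut homing, was at 113, 108, 121 and 152 CPM there from 19 UMIs, and no other class reached 10 CPM of any of the 4 on average. The class carried 5 of 9 proximal tubule markers. *Itgae*, the αE chain of mucosal T cells, was called in TAL at 24.5, 29.7, 18.5 and 25.7 CPM, where its only known partner *Itgb7* had a mean of 0.32 CPM. In immune cells *Itgae* had a mean of 20.8 CPM from 4 UMIs. *Itgae* and *Haspin* overlap in the annotation, as do 25 of the 49 members with another gene, and whether the counting used strand is not given in the sources used here.

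Several members also differed between the clusters that made up a class. In PT, the cluster led by *Slc5a12* and *Slc5a2*, transporters of the early proximal tubule, had 227, 166, 190.0 and 181 CPM of *Cdh2*, while the other PT clusters were at 50 CPM or less in every mouse. *Itgb6* took the reverse order, from 268, 305, 169.9 and 136 CPM in that cluster to 878, 769, 522 and 586 in the cluster led by *Cyp7b1* and *Slc5a4a*. In TAL, *Cdh20* was at 121, 91.6, 188 and 259 CPM in a cluster led by *Egf* and 11.4, 34.4, 41.3 and 40.4 in the largest cluster. *Cdh6* followed with 146, 125, 130.0 and 107 CPM against 1.56, 2.21, 6.99 and 2.40. The thin limb level of *Cdh6* came from the larger of its 2 clusters, with 497, 977, 368 and 607 CPM against 25.5, 10.1, 0 and 10.8 in the smaller, which is led by *Psca*. *Cdh13* had the same order at 296, 285, 521 and 439 CPM against 0, 3.37, 0 and 0. Among intercalated cells, *Itgav* was at 459, 368, 353 and 428 CPM in the cluster led by *Slc26a4* (pendrin) and 251, 234, 266 and 235 in the cluster with *Aqp6* and *Kit*, with no overlap. In endothelial cells, a small cluster with *Ly6c1* and *Plat* among its leading genes had 194, 252, 158 and 183 CPM of *Cdh13*, against 10.3, 8.74, 1.31 and 11.4 in the main cluster. For *Cdh2* it had 190.0, 179, 137 and 280.0 CPM against 7.71, 19.7, 3.94 and 4.55. These within-class values are descriptions and were not tested.

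The 1248 CD-PC nuclei fell into a subcluster with low *Aqp3* and sodium channel genes (*Aqp3*-low, 308 nuclei), one with high *Aqp3* (*Aqp3*-high, 260) and the inner medullary collecting duct (IMCD, 680). Of 26 members tested, 6 were higher (background 23.8%) and 6 lower (15%) in IMCD than in the mean of the other subclusters. In *Aqp3*-low cells 5 were higher (11.6%) and 5 lower (15.3%), and in *Aqp3*-high cells 4 were higher (7.08%) and 1 lower (3.0%). Of the cadherins, *Cdh2* and *Cdh3* were lowest in IMCD. *Cdh2* was at 68.0, 136, 123 and 186 CPM in *Aqp3*-low and 152, 167, 166 and 219.7 in *Aqp3*-high cells, but at 2.01, 0.920, 3.85 and 11.3 in IMCD (log2 difference of IMCD -5.15 ± 0.31 SE, adjusted p = 2.20e-58). *Cdh3* went with it, at 75.6, 99.9, 91.1 and 141 CPM in *Aqp3*-low, 70.7, 85.5, 75.8 and 109.8 in *Aqp3*-high and 4.01, 8.28, 3.85 and 4.51 in IMCD cells, and for both genes no mouse overlapped between IMCD and the others. *Cdh16* was highest in *Aqp3*-high cells, at 2023, 1781, 1885 and 1812 CPM against 529, 712, 883 and 528 in *Aqp3*-low cells and 829, 1084, 942 and 1304 in IMCD. *Cdh1* was not called in any subcluster, at 658, 826, 697 and 662 CPM in *Aqp3*-low cells, 718, 807, 696 and 586 in *Aqp3*-high cells and 428, 589.6, 393 and 569.9 in IMCD.

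Several integrins had the reverse order. *Itga2* had 0 UMIs in *Aqp3*-high cells in all 4 mice, which allows up to 16.3, 6.58, 14.2 and 27.5 CPM, and was at 7.56, 13.3, 9.11 and 7.44 CPM in *Aqp3*-low cells. In IMCD it was at 181, 281, 287 and 288 CPM (log2 difference of IMCD 7.33 ± 0.36 SE, adjusted p = 4.99e-89, a fitted value that depends on the prior count because of the zeros). Its partner *Itgb1* was also higher in IMCD, at 288, 295, 221 and 282 CPM against 83.2, 117, 95.6 and 126 in *Aqp3*-low and 158, 208, 133 and 156 in *Aqp3*-high cells. *Itga2b*, *Itga3* and *Itgb5* were the other integrins above 10 CPM that were higher in IMCD. *Itga2b* was at 80.2, 80.0, 121 and 78.8 CPM there, *Itga3* at 154, 305, 156 and 228 and *Itgb5* at 180.5, 262, 168 and 228. The fibronectin receptor chain *Itga5* was called higher there as well, at 7.02, 2.76, 5.78 and 4.51 CPM from 15 UMIs. *Itga1*, the other collagen receptor chain, had the opposite pattern, at 136, 193, 173 and 179 CPM in *Aqp3*-low, 141, 151, 208 and 211 in *Aqp3*-high and 27.1, 26.7, 32.7 and 36.0 in IMCD cells (log2 difference of IMCD -2.35 ± 0.21 SE). *Itga6*, *Itgb8* and *Cdh13* were lower in IMCD, but *Itga6* and *Itgb8* were below the free RNA in all 3 subclusters, and *Cdh13* was above it in every mouse of none, its UMIs in *Aqp3*-low cells being all from control 2. In 20.5% of the *Aqp3*-low nuclei the profile was marked as a doublet.

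**Figure D3:**
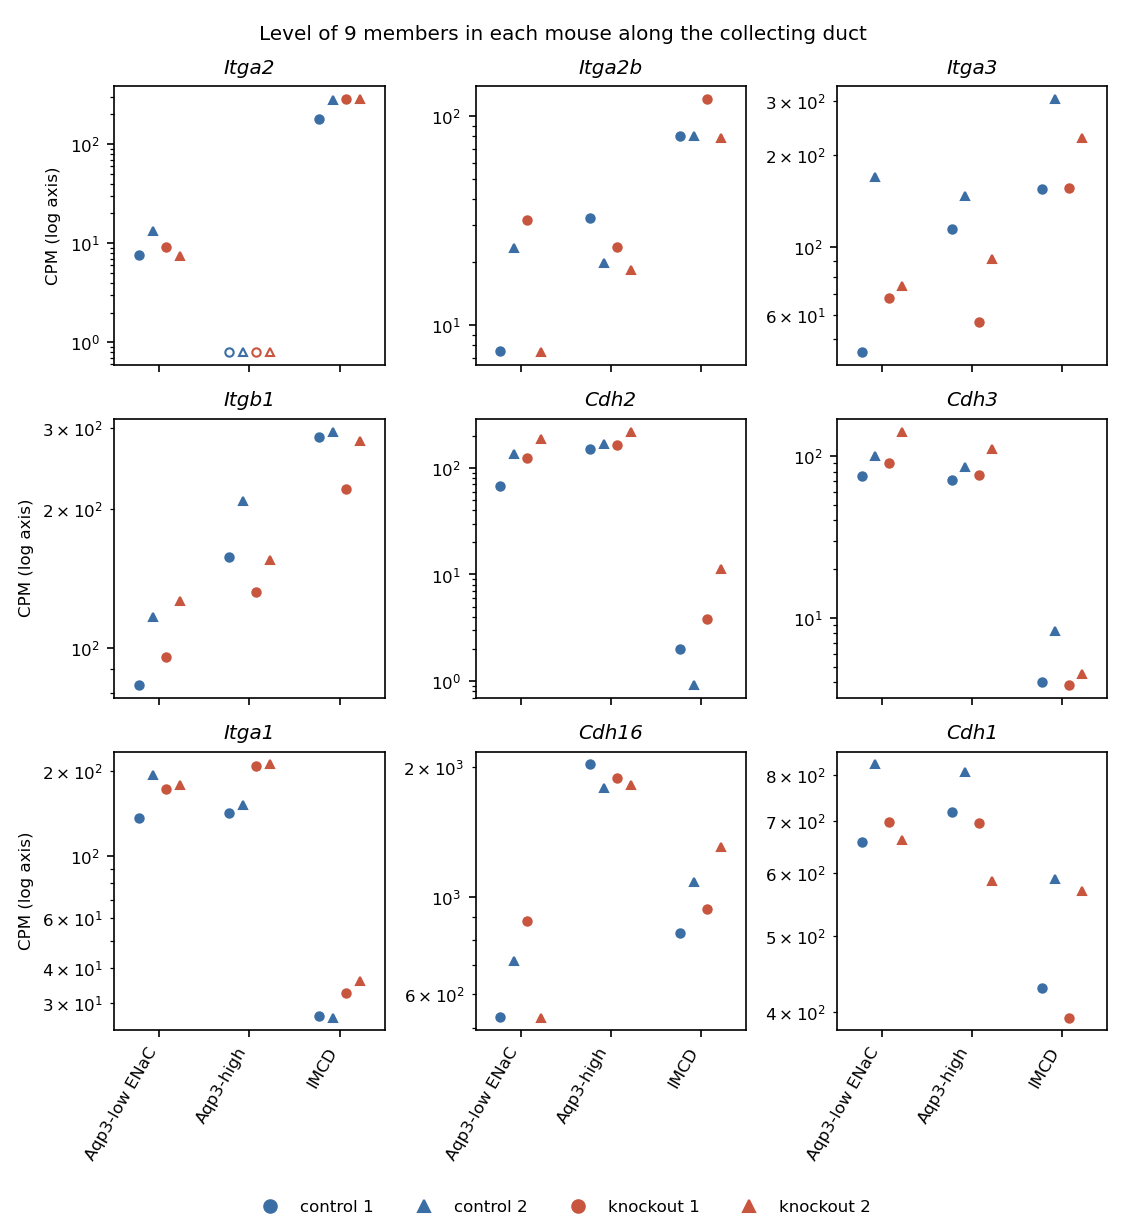
Level of 9 members in CPM on a log axis in the 3 CD-PC subclusters, with a symbol per mouse (blue, controls; red, knockouts; circle, mouse 1; triangle, mouse 2; open symbols at 0.8 stand for values below 0.8). *Itga2*, *Itga2b*, *Itga3* and *Itgb1* have their highest means in IMCD, *Cdh2*, *Cdh3* and *Itga1* are lowest there, and *Cdh16* is highest in *Aqp3*-high cells.

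TFAP2A binds an AP-2 consensus, and GCCNNNGGC (the same on both strands) was searched in the 250 bases before each start site. Entries in the RefSeq promoter table (GRCm38.p6) matched 31 of the 49 members, and 7 of these held the motif: *Itga2*, *Itga4*, *Itga8*, *Itga11*, *Cdh6*, *Cdh18* and *Cdh22*. By window, 7 of the 35 windows of members (20%) and 4509 of all 32851 (13.7%) held it. A match describes letters and not binding. The windows are shown for *Itga2*, whose level set IMCD apart, for *Itgb6*, taken up below between genotypes, and for *Cdh6*, the leading cadherin of the thin limb, all on the minus strand, with the motif in capitals. They are chr13:114932101-114932350 for *Itga2*, with the first motif base 135 bases before the start, chr2:60722604-60722853 for *Itgb6*, with no match, and chr15:13173676-13173925 for *Cdh6*, with the first motif base 162 bases before the start.
Itga2: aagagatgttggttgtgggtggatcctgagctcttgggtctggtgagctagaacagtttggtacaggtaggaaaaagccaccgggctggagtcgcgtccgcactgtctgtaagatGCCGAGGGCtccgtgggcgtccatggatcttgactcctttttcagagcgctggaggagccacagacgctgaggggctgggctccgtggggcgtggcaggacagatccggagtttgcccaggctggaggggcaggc
Itgb6: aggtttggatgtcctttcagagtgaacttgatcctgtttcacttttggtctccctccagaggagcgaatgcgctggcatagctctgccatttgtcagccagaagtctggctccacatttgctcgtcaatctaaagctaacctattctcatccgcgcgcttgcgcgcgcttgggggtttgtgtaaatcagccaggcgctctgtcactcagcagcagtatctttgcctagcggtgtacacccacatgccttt
Cdh6: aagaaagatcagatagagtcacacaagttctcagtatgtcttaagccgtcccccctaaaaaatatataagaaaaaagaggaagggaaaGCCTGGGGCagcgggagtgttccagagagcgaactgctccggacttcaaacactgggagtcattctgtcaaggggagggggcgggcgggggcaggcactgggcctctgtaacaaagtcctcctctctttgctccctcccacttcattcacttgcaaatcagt

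The comparison of genotypes asked whether loss of TFAP2A in the collecting duct went with changes of these adhesion genes. It rests on 2 control and 2 knockout mice, a design in which an exact permutation test cannot give p below 0.33, so only edgeR's test across all genes was used, with the mouse as the replicate. In CD-PC none of the 26 members tested was called, nor was any other gene (0.0% of 13356), and no member had an unadjusted p under 0.05 (2.34% of all genes had). Fitted log2 changes ran from -2.06 to 0.58 with a median of -0.19 (all genes -0.01), and 16 members had a negative change. E-cadherin was at 492, 682, 530.5 and 590.5 CPM, a change of -0.09 ± 0.33 SE, 95% interval -0.82 to 0.63. *Cdh16* was at 966, 1196, 1138 and 1233 CPM, a change of 0.11 ± 0.35 SE, 95% interval -0.67 to 0.89. For both the interval leaves room for a change of over 1.5 times in either direction, and controls and knockouts overlapped. For 2 other cadherins above the free RNA in CD-PC, the fitted change was 0.42 ± 0.38 SE, 95% interval -0.42 to 1.27 for *Cdh3* and 0.58 ± 0.37 SE, 95% interval -0.23 to 1.40 for *Cdh2*. Among integrins it was 0.15 ± 0.27 SE, 95% interval -0.45 to 0.76 for *Itga2*, -0.44 ± 0.35 SE, 95% interval -1.22 to 0.34 for *Itga3* and -0.31 ± 0.28 SE, 95% interval -0.93 to 0.31 for *Itgb1*. None of these intervals excludes 0. *Itga2b*, *Itgb4*, *Itgb5*, *Cdh4* and *Cdh18* were above the free RNA in CD-PC too, and none of them had an unadjusted p under 0.05. Members that were not above the free RNA in every mouse gave -0.66 ± 0.33 SE, 95% interval -1.39 to 0.07 for *Itgb6* and -0.65 ± 0.43 SE, 95% interval -1.61 to 0.31 for *Itga6*. *Itgav* gave 0.03 ± 0.26 SE, 95% interval -0.56 to 0.61, *Itgb8* 0.06 ± 0.48 SE, 95% interval -1.0 to 1.12 and *Cdh13* -1.42 ± 0.68 SE, 95% interval -2.92 to 0.08. In 7 members both knockout mice were below both controls (13.4% of all genes) and in 2 both were above (14.0%). Summed connecting tubule markers in CD-PC were 693 and 696 CPM in the controls and 1781 and 1145 in the knockouts, and thick ascending limb markers 1299 and 1030 against 867 and 532, whose part in these values was not tested. The first list shares *Scnn1g* and the second *Kcnj1* with the CD-PC markers, so these sums partly count genes of principal cells.

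**Figure D4:**
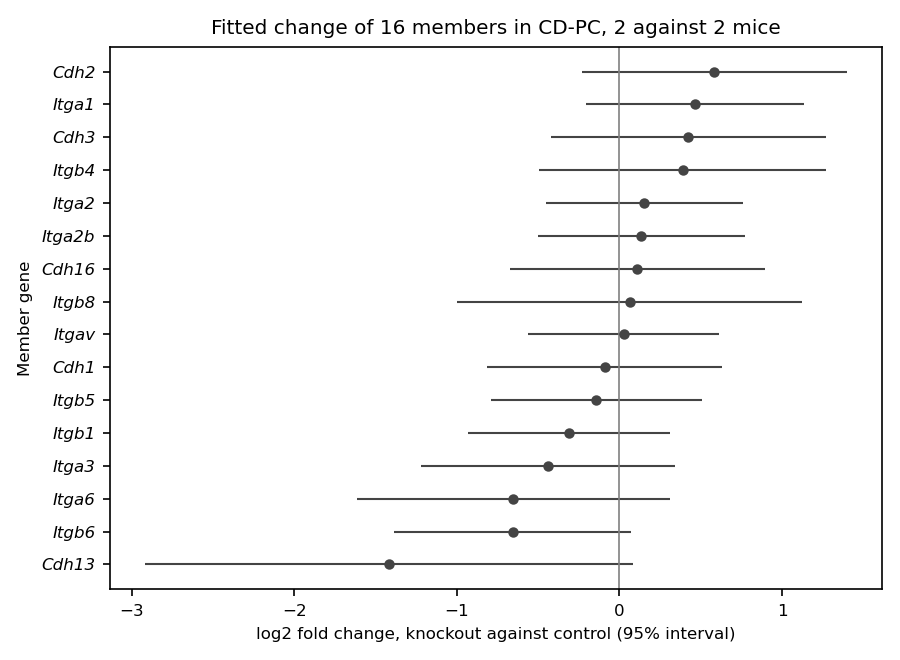
Fitted log2 fold change of 16 members in CD-PC, knockout against control, with 95% intervals from edgeR's quasi-likelihood fit on 2 against 2 mice. Every interval includes 0, and they run from *Cdh13* at -1.42 to *Cdh2* at 0.58.

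Within the CD-PC subclusters no member was called either, against 0.0% of all genes in *Aqp3*-low and *Aqp3*-high cells and 0.00827% in IMCD. Of 56 pairs of member and subcluster tested, 6 had an unadjusted p under 0.05 by edgeR and 0 by DESeq2, neither of which called any. In *Aqp3*-low cells 3 of 18 members had one (2.55% of all genes). *Itgb6* was at 113, 153, 91.1 and 37.2 CPM there, below the free RNA in each mouse (change -1.04 ± 0.50 SE, 95% interval -2.08 to -0.002, unadjusted p = 0.0495, adjusted p = 1.00), and *Cdh4* at 22.7, 46.6, 9.11 and 7.44 CPM (change -2.11 ± 0.87 SE, 95% interval -3.93 to -0.30, unadjusted p = 0.0248, adjusted p = 1.00), from 20 UMIs in all. For *Cdh13* all 17 UMIs in *Aqp3*-low cells came from control 2, where it was at 56.6 CPM, so that value is of a single mouse. In *Aqp3*-high cells 2 of 17 had one (4.13% of all genes), namely *Itga6* at 27.2, 52.6, 14.2 and 0 CPM and *Itga3* at 114, 147, 56.8 and 91.5 (change -0.96 ± 0.37 SE, 95% interval -1.76 to -0.17, unadjusted p = 0.0208, adjusted p = 1.00). Of these, *Itga3* was above the free RNA in every mouse, with the knockouts below the controls without overlap. The *Cdh4* values of the knockouts rest on 2 UMIs and 1 UMI, too few to set beside the free RNA. In IMCD 1 of 21 had one (1.78%), namely *Cdh13* at 13.0, 0.920, 0 and 0 CPM, with 13 of its 14 UMIs in control 1. The change in CD-PC was also compared with the mean change in 6 classes outside the Hoxb7Cre lineage. For 4 of the 26 members, *Itga2*, *Itga5*, *Itga10* and *Cdh13*, this difference had no usable standard error, so they could not have been called. Of the other 22 none was called (0.0% of all genes), and 3 had an unadjusted p under 0.05 (4.57% of all genes). They were *Itga1* (difference 0.76 ± 0.25 SE, 95% interval 0.24 to 1.27, unadjusted p = 0.00541, adjusted p = 1.00), *Itgb4* (2.31 ± 1.05 SE, 95% interval 0.15 to 4.46, unadjusted p = 0.0368, adjusted p = 1.00) and *Cdh2* (1.75 ± 0.80 SE, 95% interval 0.09 to 3.40, unadjusted p = 0.0392, adjusted p = 1.00), each relatively higher in knockout CD-PC. Such a difference can come from lower levels in the 6 classes as well as from a rise in CD-PC. For *Cdh2* the change in CD-PC itself was 0.58, with an interval that included 0. Each of the 6 classes has equal weight, also TAL and DCT, where *Cdh2* was very low. In DCT the mean of *Itgb4* was 2.42 CPM. The share of each part was not tested. In CD-PC as a whole, *Itga1* was not above the free RNA in every mouse, while *Itgb4* and *Cdh2* were. *Itga1* and *Cdh2* are genes of the *Aqp3*-low and *Aqp3*-high cells, and those cells were 32.3% (27.3 to 37.7), 49.7% (45.1 to 54.3), 54.7% (48.4 to 60.9) and 45.5% (38.3 to 52.9) of CD-PC nuclei in the order of the mice (95% exact binomial intervals, which cover counting error only). Controls and knockouts overlapped in this share, and its part in the differences was not tested.

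Across all 12 classes no member was called in 249 pairs of member and class. Other genes were called in 4 classes: PT (0.00563% of all genes), thin limb (0.00831%), TAL (0.0135%) and endothelial cells (0.0231%). Of the 249 pairs, 22 had an unadjusted p under 0.05 (2.99% of all pairs of gene and class), and DESeq2 called 0 with 9 unadjusted. *Itgb6* was the member that appeared most often. In PT, where 4 members of 44 had an unadjusted p under 0.05 (3.54% of all genes), it was at 692, 691, 429 and 309 CPM (change -0.92 ± 0.22 SE, 95% interval -1.46 to -0.37, unadjusted p = 0.0067, adjusted p = 0.999). In TAL, where 2 members of 29 had one (3.05%), it was at 364, 538, 313 and 213 CPM (change -0.79 ± 0.29 SE, 95% interval -1.47 to -0.11, unadjusted p = 0.029, adjusted p = 1.00). Both knockouts were below both controls in PT (14.0% of all genes), TAL (15%), DCT (13.3%), CNT (13.8%), CD-PC and endothelial cells (16.9%). Among the 3122 genes tested in all 12 classes, 51 (1.63%) were lower without overlap in at least as many. *Itgb6* had the most such classes of all members, so this share is a description and no test. Only in PT and TAL of those 6 classes was *Itgb6* above the free RNA, whose own level of *Itgb6* overlapped between genotypes at 194, 176, 208 and 148 CPM. The classes share the same 4 mice and are not independent. By cluster, *Itgb6* was lower in both knockouts in all 5 PT clusters, for example at 793, 737, 503 and 297 CPM in the largest, and in all 3 TAL clusters, at 479, 622, 258 and 269.8 CPM in the cluster with the most *Cdh20*.

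**Figure D5:**
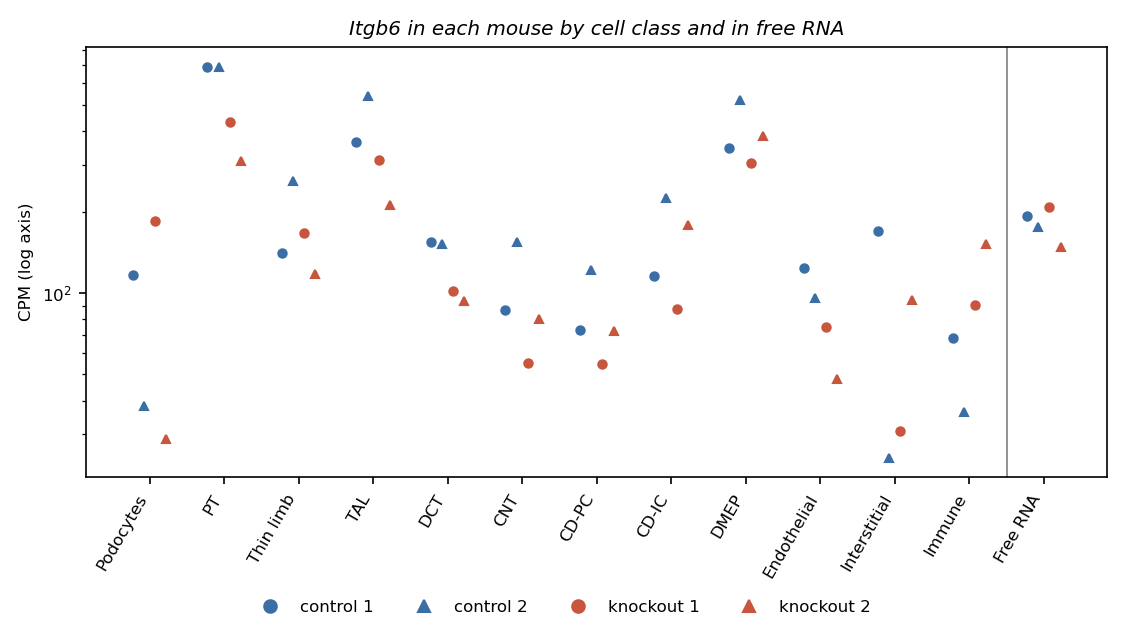
Level of *Itgb6* in CPM on a log axis in the 12 cell classes and, right of the line, in the free RNA of each library, with a symbol per mouse (blue, controls; red, knockouts; circle, mouse 1; triangle, mouse 2). In PT the controls are at 692 and 691 CPM and the knockouts at 429 and 309, and in the free RNA the genotypes overlap.

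Laminin receptor *Itga6* had a like order in PT, at 139.5, 215, 79.3 and 109.5 CPM (change -0.92 ± 0.26 SE, 95% interval -1.58 to -0.26, unadjusted p = 0.015, adjusted p = 0.999), and in DCT, at 431, 652, 335 and 275 CPM (change -0.83 ± 0.31 SE, 95% interval -1.52 to -0.14, unadjusted p = 0.0236, adjusted p = 1.00). Both knockouts were below both controls for *Itga6* in 5 of 10 classes tested, as for 308 (3.92%) of the 7850 genes tested in at least as many. Among the members only *Itgb6* had more such classes, so this share too is a description and no test. Other members were higher in the knockouts. In TAL *Cdh20* was at 31.5, 44.9, 69.7 and 81.0 CPM (change 0.97 ± 0.25 SE, 95% interval 0.39 to 1.55, unadjusted p = 0.00502, adjusted p = 1.00), and in the thin limb *Cdh13* was at 275, 201, 459 and 348 CPM (change 0.75 ± 0.34 SE, 95% interval 0.01 to 1.49, unadjusted p = 0.0466, adjusted p = 1.00) with both knockouts above both controls in each. In the thin limb, where 3 of 21 members had an unadjusted p under 0.05 (2.45% of all genes), *Itgb4* was also higher, at 21.7, 27.0, 51.4 and 53.5 CPM (change 1.06 ± 0.37 SE, 95% interval 0.25 to 1.87, unadjusted p = 0.0147, adjusted p = 1.00). The remaining member, *Itgb8*, was lower at 41.7, 26.0, 19.3 and 8.92 CPM (change -1.30 ± 0.54 SE, 95% interval -2.47 to -0.12, unadjusted p = 0.0331, adjusted p = 1.00), all below the free RNA. None of these changes passed the adjustment over all genes. With the replicate number as a block, which the labels do not tie to a shared litter or day, *Itga6* in DCT and *Cdh13* in the thin limb did (adjusted p = 0.0299 and 0.0342).

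In CNT the members leaned towards lower levels in the knockouts, with a median log2 change of -0.42, which is not set beside the median of all genes. There, 5 of 15 members were lower without overlap (13.8% of all genes) and 0 higher (13.7%). The smallest unadjusted p of the 15 by edgeR's test was 0.0487 (adjusted p = 0.9998). In DMEP, with 63, 91, 31 and 31 nuclei, the members leaned towards higher levels in the knockouts, with a median log2 change of 0.37 (all genes -0.03). Without overlap, 6 of 16 members were higher (13.0% of all genes) and 2 lower (20.2%). Of the 16, 2 had an unadjusted p under 0.05 (4.28% of all genes) and none was called by edgeR or DESeq2. *Cdh4* was at 32.9, 39.6, 88.7 and 92.9 CPM (change 1.34 ± 0.45 SE, 95% interval 0.40 to 2.28, unadjusted p = 0.00726, adjusted p = 0.932), above the free RNA in every mouse. *Itga2b* was at 20.5, 11.7, 44.3 and 43.3 CPM (change 1.55 ± 0.67 SE, 95% interval 0.17 to 2.93, unadjusted p = 0.0294, adjusted p = 1.00), and in control 2 it was below the free RNA. These *Itga2b* levels rest on few counts, since 3 UMIs in DMEP equal 12.3, 6.99, 22.2 and 18.6 CPM. The smallest unadjusted p of all 249 pairs was that of *Itga9* in immune cells, where 2 of 12 members had one under 0.05 (3.59% of all genes). *Itga9* was at 340.4, 325, 60.3 and 0 CPM there from 28 UMIs (change -2.79 ± 0.79 SE, 95% interval -4.40 to -1.17, unadjusted p = 0.00143, adjusted p = 0.631), and both knockouts were below the free RNA.

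In endothelial cells 6 of 28 members had an unadjusted p under 0.05 (4.28% of all genes). Without overlap between genotypes, 10 were lower (16.9% of all genes) and 4 higher (14.0%). *Cdh13* was at 57.3, 77.0, 18.7 and 38.4 CPM (change -1.27 ± 0.36 SE, 95% interval -2.04 to -0.50, unadjusted p = 0.00301, adjusted p = 0.68) and *Cdh2* at 54.5, 64.5, 18.7 and 48.0 CPM (change -0.90 ± 0.38 SE, 95% interval -1.71 to -0.09, unadjusted p = 0.0309, adjusted p = 0.999). Without knockout 2, *Cdh13* was called in endothelial cells (log2 change -1.76, adjusted p = 0.0263). The small cluster with *Ly6c1* and *Plat*, where both genes were high, made up 21.8% (18.5 to 25.5), 24.3% (20 to 29.0), 8.42% (6.08 to 11.3) and 14.7% (10.8 to 19.3) of the endothelial nuclei in the order of the mice (95% exact binomial intervals, which cover counting error only), and its part in these values was not tested. Within that cluster *Cdh13* was at 194, 252, 158 and 183 CPM and *Cdh2* at 190.0, 179, 137 and 280.0, so that the genotypes overlapped for *Cdh2* there and did not for *Cdh13*. *Cdh5*, in contrast, overlapped between genotypes at 217, 279.8, 228 and 286 CPM, with a change of 0.06 ± 0.27 SE, 95% interval -0.50 to 0.63. In interstitial cells no member had an unadjusted p under 0.05, and *Itga8* was at 284, 300.5, 339 and 142 CPM, a change of -0.27 ± 0.43 SE, 95% interval -1.17 to 0.62.

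The molecules that work with these receptors gave no call either. Catenins and their adherens junction partners, tested in 147 pairs of gene and class, integrin adaptors such as talins and kindlins, in 222, and matrix ligands such as laminins, in 122, held no gene with an adjusted p under 0.05, with a smallest value of 0.755 for a matrix ligand. Unadjusted, 4, 7 and 8 of these pairs had a p under 0.05, against the 2.99% of all pairs. In the CD-PC subclusters 37, 54 and 21 pairs of the same lists were tested and none was called, with 1 unadjusted p under 0.05. In the comparison of CD-PC with the classes outside the lineage, 14, 20 and 13 genes were tested and none was called, with 2 integrin adaptors at an unadjusted p under 0.05.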

How the data were processed

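Nuclei of 2 control and 2 knockout mice were profiled by 10x single-nucleus RNA-seq, with 1 library per mouse. The authors aligned reads to mm10 and counted them with Cell Ranger 3.0.2, and the deposited matrices hold raw UMI counts of 31053 genes for 6794880 barcodes per library, with no normalization. Whether the counting used introns or strand is not given in the sources used here.

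The study's filters were applied: the 10000 barcodes with most UMIs per library, more than 500 and fewer than 4000 genes per nucleus, genes in at least 3 nuclei and under 5% mitochondrial UMIs. Seurat 5.3.0 integrated the 4 libraries and clustered the nuclei (2000 variable genes without the 16 members among them, 30 dimensions, resolution 0.5, which gave 25 clusters). Clusters were named from marker lists, with thresholds set after the clusters were seen, so classes can differ from the study's own. A simulation-based caller marked 4.35% to 6.40% of nuclei per library as doublets, which were kept and left out in an alternative. CD-PC were reclustered at resolution 0.2.

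UMIs were summed per mouse and class. edgeR 4.0.16 (R 4.3.3, TMM, quasi-likelihood test, at least 10 UMIs) was fitted to all genes, with Benjamini-Hochberg adjustment over all genes tested and calls at an adjusted p under 0.05. Genotypes were compared with no covariate, and classes with the mouse as a covariate. Where a class holds a member at 0 in all libraries, a test over a mean of classes can have no usable SE (missing or over 10) and cannot give a call. SE is the log2 change divided by the square root of F, and intervals are 95%. Between genotypes, the p-values measure the spread between mice. The tests between classes, between subclusters and of CD-PC against classes outside the lineage hold the mouse in the fit. Their p-values measure how class sums vary within the same 4 mice, and not the spread between mice. The tests were tried on simulated data. DESeq2 1.42.0 was an alternative, as were other filters and scalings, the replicate number as a block, each mouse left out, other clusterings and nuclei under 1% mitochondrial UMIs.

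Named members were, per class, up to 4 with the highest ratio to the mean of the other classes among those called higher with at least 10 CPM in every mouse, those with p under 0.05 in CD-PC or its subclusters, and 14 listed members. Other members named between genotypes were chosen after their values were seen. The members and lists were chosen with earlier results of these data known. Gene positions and promoters are RefSeq's on GRCm38.p6. Binomial intervals and floors (3 counts for a count of 0) cover counting error only.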

Additional observations from a re-analysis of the deposited data

How the results depend on the processing

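Over the 12 classes the number of members called between genotypes was 0 with all settings but 2: with the replicate number as a block it was 3, and leaving out 1 mouse at a time gave 0 to 1. The 3 calls under the replicate block were *Cdh13* in the thin limb (log2 change 0.75, adjusted p = 0.0342), *Itga6* in DCT (-0.79, adjusted p = 0.0299) and *Cdh13* in endothelial cells (-1.28, adjusted p = 0.0051, against 0.68 without the block), and the cause was not tested. Same-numbered mice deviated together (Pearson r across genes 0.31 to 0.51 in 4 classes), but there are 2 pairs and the labels give no shared litter or day. Their libraries were also alike in depth and quality. Control 1 and knockout 1 held 42138345 and 44964099 UMIs, with a median of 1.66% and 1.05% mitochondrial UMIs. Control 2 and knockout 2 held 24998797 and 22179410 UMIs, with 0.671% and 0.417%. The part of this likeness in the calls was not tested. In the CD-PC subclusters the block gave 0 calls. The call of *Cdh13* without knockout 2 had a log2 change of -1.76, and the lone knockout is then assumed to vary like the controls. In the subclusters and in the comparison of CD-PC with classes outside the lineage, all settings gave 0 calls. Calls between classes numbered 183 and ranged from 157 (control mice only) to 215 (DESeq2), and 167 to 173 without 1 mouse. Calls between subclusters numbered 27 and ranged from 20 to 29. *Itga6* and *Itgb8*, higher in *Aqp3*-low cells, lost that call without doublets (adjusted p = 0.0574 and 0.922), in control mice only and at subcluster resolution 0.4. Requiring a level above the free RNA in every mouse left 105 of 199 pairs of member and class. Leaving out doublets moved 12 of the 199 mean levels by over 1 SD, among them *Cdh5* in endothelial cells, at 305 CPM. No result reversed. With nuclei under 1% mitochondrial UMIs, 11 of the 12 classes could be tested. With 2 mice a group, the intervals of most CD-PC changes leave room for changes of over 1.5 times.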
